A study of Mus musculus with 3 samples.

Results

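The cells compared here were hematopoietic stem cells (HSCs) in which 2 internal elements of *Vwf*, counted together, were caught open, or gave no sign of being open, in single-cell ATAC-seq. They were chosen by their own ATAC fragments in these elements. Of 3757 barcodes called as cells, 3108 (82.7%) had more than 3000 fragments in peaks and entered the count. Cells with at least 2 fragments in the elements formed the open group (558 cells, 18.0% of passing cells). Cells with no such fragment formed the closed group (1631 cells, 52.5%), and 919 cells (29.6%) had exactly 1. Of the open cells, 548 could be paired with a closed cell of nearly the same number of ATAC fragments, and 547 of the cells with exactly 1 fragment were matched in the same way.

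All cells came from 1 preparation of bone marrow from wild-type female C57BL/6J mice aged 8 weeks, whose number the records do not state. Long-term HSCs had been sorted as LSK cells with CD150 and without CD48 and CD34. ATAC and RNA were read from the same cells, so both groups share their animals, sort and libraries. With 1 preparation, and cells that are not replicates, no p-value is given, and every interval below is a 95% interval that covers counting error only.

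*Vwf* encodes von Willebrand factor, the large adhesive protein that tethers platelets to damaged vessel walls. It is made by megakaryocytes and endothelial cells, and among HSCs its expression serves as a marker of platelet bias, although many cells that express it are not biased in this way. The comparison asked whether HSCs caught with these elements open also differed elsewhere in the genome, so chromosome 6, which carries *Vwf*, was left out of every gene, tile and motif value.

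The *Vwf* gene (ENSMUSG00000001930) lies at chr6:125546774-125686679 in mm10. The first element falls between exons 6 and 7 of the full-length transcript, Vwf-203. The second overlaps exons 14 and 15 of the same transcript and contains the start of a shorter processed transcript, Vwf-206, at position 125603550. Over all passing cells the first element collected 898 fragments and the second 1409. The 3 bins of 1000 bp that make up the elements were the most covered of the 143 bins over the gene and the 2000 bp upstream, and the next bin held 332 fragments. The bin with the start of Vwf-203, at 125552948, held 178 fragments and the next bin 89. The gene's annotation starts further upstream, and the 1000 bp on either side of that position held 2 fragments in the matched open cells and 4 in the matched closed cells.

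**Figure D1:**
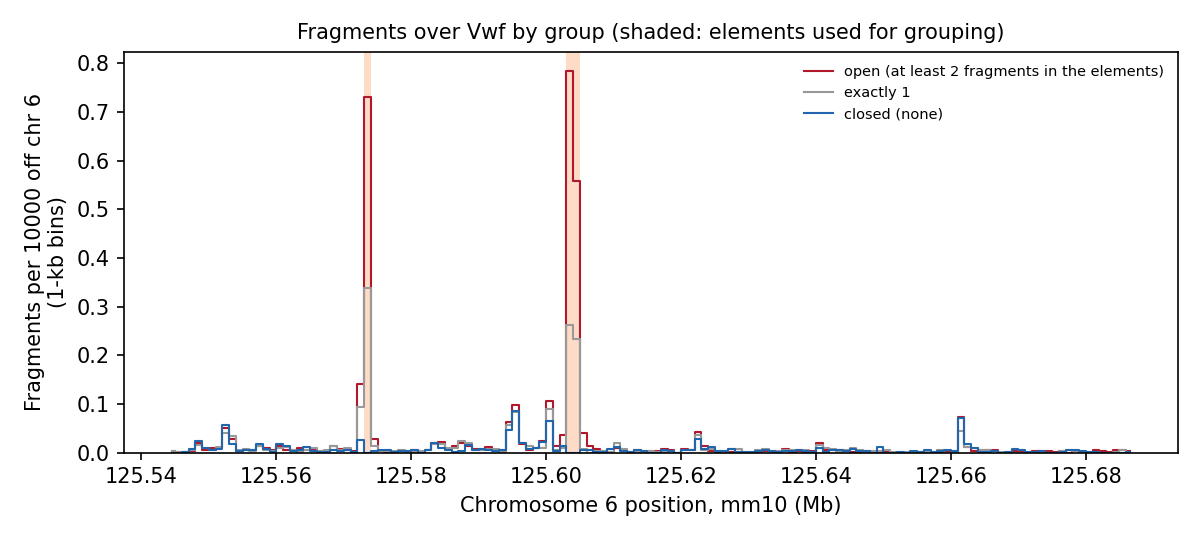
ATAC fragments in bins of 1000 bp over *Vwf* (x axis, mm10 position on chromosome 6) per 10000 fragments off chromosome 6 (y axis) in matched open cells, cells with exactly 1 fragment and closed cells. The elements used to group the cells are shaded, so the separation of the lines there follows from the grouping.

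The most covered 300 bp in each of the 3 bins are printed to show which motif strings the elements hold. They are chr6:125573207-125573506 in the first element, and chr6:125603353-125603652 and chr6:125604374-125604673 in the second, all on the plus strand of GRCm38. Capitals mark matches on either strand to any of 10 strings: TGTGGT for RUNX, ACTTCC for ETS, GAGGAAG for SPI1, GGGCGTG for KLF, TTCNNNGAA for STAT, TGACAG for MEIS, TTGCNNAA for CEBP, TGANTCA for AP-1, CAGCTG for the E-box and AGATAA for GATA factors, where N is any base.
intron element: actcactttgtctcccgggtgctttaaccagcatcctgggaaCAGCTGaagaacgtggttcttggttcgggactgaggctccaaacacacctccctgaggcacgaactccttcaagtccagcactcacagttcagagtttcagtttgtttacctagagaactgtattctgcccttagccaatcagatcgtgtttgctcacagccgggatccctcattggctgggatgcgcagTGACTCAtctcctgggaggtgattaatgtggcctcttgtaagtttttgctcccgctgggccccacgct
exon element, upstream bin: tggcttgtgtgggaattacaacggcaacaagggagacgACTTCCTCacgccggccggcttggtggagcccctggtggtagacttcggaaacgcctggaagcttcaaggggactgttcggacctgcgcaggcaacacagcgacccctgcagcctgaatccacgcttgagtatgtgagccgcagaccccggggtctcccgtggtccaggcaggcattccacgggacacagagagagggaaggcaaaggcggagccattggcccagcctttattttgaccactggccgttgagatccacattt
exon element, downstream bin: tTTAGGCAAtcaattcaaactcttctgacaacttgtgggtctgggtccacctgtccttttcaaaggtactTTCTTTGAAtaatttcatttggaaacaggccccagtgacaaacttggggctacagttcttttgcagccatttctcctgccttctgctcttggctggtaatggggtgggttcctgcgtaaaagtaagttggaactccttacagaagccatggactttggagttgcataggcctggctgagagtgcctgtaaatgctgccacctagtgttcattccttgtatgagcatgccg

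The intron window held 1 E-box string, found in 15.6% of the central 300 bp of all tested tiles, and 1 AP-1 string, found in 6.58%. The upstream exon window held an ETS string (20.3% of tile centers) that overlapped a SPI1 string (13.1%). The downstream exon window held a CEBP string (9.70%) and a STAT string (7.28%). The GATA (9.86%), RUNX (17.4%), KLF (6.94%) and MEIS (17.4%) strings were in none of the 3 windows, which says only that these letters are not there.

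Most cells had few fragments in the elements, with a mean of 0.742 and a highest count of 8. Just inside the threshold, 378 cells had exactly 2 and a median of 12182.5 ATAC fragments. Just outside it, the 919 cells with exactly 1 had a median of 11641. Over 3 equal groups of 1036 passing cells each by ATAC fragments, the open share was 12.1% in the shallow, 16.7% in the middle and 25.1% in the deep cells, and matching on depth takes this into account. The variance of the count over its mean was 1.33 in all cells, and 1.21 in the shallow and 1.36 in the deep cells. Of the open cells, 242 (43.4%, 39.2 to 47.6%) had fragments in both elements, 97 in the first alone and 219 in the second alone. This split depends on the threshold of at least 2 fragments.

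Over all passing cells, the share with a fragment in the second element was similar with and without a fragment in the first. The second element had a fragment in 33.9% (30.4 to 37.5%) of the 714 cells with a fragment in the first and in 31.9% (30.01 to 33.8%) of the 2394 cells without. Among shallow cells the shares were 25.3% (19.1 to 32.3%) and 25.5% (22.6 to 28.6%). They were 32.5% (26.6 to 38.9%) and 32.3% (29.1 to 35.7%) among middle cells, and 40.1% (34.5 to 45.9%) and 38.8% (35.3 to 42.4%) among deep cells. In each of these comparisons the intervals overlapped. They cover counting error only and use the fragments that formed the groups, and whether the elements tend to open together was not tested.

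By design, matched open and closed cells both had a median of 12489 ATAC fragments, and pairs were a median of 0.0353% apart. The groups were also close in readouts that were not matched. Fragments in peaks were a median of 70.4% of a cell's fragments in open cells, with quartiles of 68.4 and 72.4%, and 70.0% in closed cells, with quartiles of 67.8 and 71.8%. RNA UMIs had a median of 3908.5 (quartiles 3170 and 4810.75) in open and 4005 (quartiles 3257.5 and 4885.25) in closed cells, and detected genes 2053 and 2064.5. These readouts thus differed by far less than their spread over cells. Intronic UMIs were 48.0% and 47.9%, mitochondrial reads 0.242% and 0.250%, and the nucleosome signal 0.705 and 0.706. Cells marked as possible doublets made up 14.2% (11.4 to 17.4%) of open and 11.3% (8.79 to 14.3%) of closed cells. The part of these small differences in the values below was not tested, beyond the matching and the alternatives named.

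Markers of stem cells and of mature cells both collected fragments, in both groups. *Mecom*, a factor of HSC self-renewal, held 3311 and 3257 fragments in open and closed cells (log2 ratio 0.0075, -0.063 to 0.078), and *Hlf*, another HSC factor, held 1002 and 944, and *Procr*, which encodes the HSC marker EPCR, 74 and 51. Among markers of mature cells, the groups held 48 and 39 on *Mpo*, a granule enzyme, and 13 and 25 on the T-cell gene *Cd3e*. Other markers were *Elane* (56 and 60), *Ebf1* (413 and 453), *Pax5* (650 and 588), *Cd3d* (293 and 280), *Klf1* (393 and 363) and *Csf1r* (343 and 399). These sums are not scaled to gene length, so they compare the groups and not the genes, and do not by themselves show the identity of the cells.

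With fragments divided by all fragments off chromosome 6, no difference in the sum over megakaryocyte genes was detectable between open and closed cells. Fragments were summed over each gene and the 2000 bp upstream and divided by this total, which was 6931140 in open, 6884235 in exactly-1 and 6853854 in closed cells. Of 43 megakaryocyte genes, 38 lie off chromosome 6. They held 27.7 (27.4 to 28.1) fragments per 10000 in open, 27.5 (27.1 to 27.9) in exactly-1 and 27.8 (27.4 to 28.2) in closed cells. The log2 ratio of open over closed was -0.0022 (-0.031 to 0.027), and these bounds limit a shift of the summed list. Single open cells had a median of 27.4 per 10000 (quartiles 23.1 and 31.5) and closed cells 26.8 (22.8 and 32.0).

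Of the 29 megakaryocyte genes with at least 300 fragments in both groups together, 17 were higher and 12 lower in open cells, with a median log2 ratio of 0.0052. None was called, which means at least 25% higher or at least 20% lower. Over all 11172 protein-coding genes past this minimum the median was 0.0071, and 52.4% were higher in open cells. Of them 2.24% were called, 0.958% as higher and 1.28% as lower. Every list below is to be read beside these shares. The 9 members below the minimum went the other way: 8 held fewer fragments in open than in closed cells and 1 the same number, 608 and 746 in all (-0.31, -0.47 to -0.15), a sum looked at only after the members had been seen. Of the members below the minimum in other lists, the 16 lymphoid genes held 779 and 853 (-0.15, -0.29 to -0.0053) and the 23 myeloid genes 909 and 933 (-0.054, -0.19 to 0.080). The 11 endothelial genes held 1013 and 1029 (-0.039, -0.17 to 0.088). The 13 erythroid genes held 575 and 543 (0.066, -0.11 to 0.24) and the 5 stem cell genes 466 and 418 (0.14, -0.053 to 0.33). No such sum over all genes below the minimum is given here. With no minimum, 1558 of 18905 genes were called higher and 1953 lower. The scaling bears on such small values, because 64.4% of the open and 63.1% of the closed fragments off chromosome 6 fell in the tested tiles of 1000 bp. Divided by fragments in these tiles, the megakaryocyte log2 ratio was -0.032 (-0.061 to -0.0027) and the median of all tested genes -0.022.

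Genes that define the lineage lay on both sides of 0. *Itga2b* (ENSMUSG00000034664, chr11:102453297-102470122), the integrin chain CD41, held 858 and 787 fragments in open and closed cells (log2 ratio 0.11, -0.033 to 0.25). *Pf4*, a chemokine of platelet granules, held 169 and 167. *Gp1ba*, part of the platelet receptor for von Willebrand factor, held 189 and 209 (-0.16, -0.45 to 0.13). The highest ratios in the list were those of *P2rx1*, an ATP-gated channel of platelets (0.23, 0.011 to 0.44), the growth factor gene *Pdgfa* (0.17) and the adhesion receptor gene *Selp* (0.16). With cells matched on fragments in peaks, *P2rx1* stood at -0.039 and *Itga2b* at -0.062. Besides *Gp1ba*, the lowest were *Bin2* (-0.20) and the thrombin receptor gene *F2r* (-0.17). Of the lineage's transcription factors, *Fli1* held 1163 and 1130 (0.025, -0.094 to 0.14), *Runx1* 2408 and 2460 (-0.047, -0.13 to 0.035) and *Gata1* only 47 and 68 (-0.55, -1.12 to 0.0085), too few for the minimum. Also below it, *Tubb1*, a tubulin of platelets and the 1 of these 9 genes whose interval excludes 0, held 51 and 76 (-0.59, -1.13 to -0.061). The most fragments of the list, 16.2%, came from *Zfpm1*, a cofactor of GATA factors.

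Myeloid genes gave a log2 ratio of -0.016 (-0.067 to 0.034), which was -0.046 (-0.096 to 0.0047) when divided by fragments in tested tiles and -0.047 (-0.088 to -0.0058) without matching. The 34 genes off chromosome 6 held 9.16 (8.94 to 9.39) fragments per 10000 in open, 8.96 (8.74 to 9.18) in exactly-1 and 9.26 (9.04 to 9.50) in closed cells, and *Csf2ra*, a receptor of granulocyte-macrophage colony-stimulating factor, gave 22.9% of the fragments of both groups. Of 11 members past the minimum, 5 were higher and 6 lower, with a median of -0.0035. None was called, against 2.24% of all tested genes. The lowest were *Csf1r*, the receptor of macrophage colony-stimulating factor (343 and 399 fragments, -0.23, -0.45 to -0.023), and the granulocyte and monocyte factors *Cebpa* (317 and 365, -0.22, -0.44 to 0.0015) and *Cebpb* (-0.18). The highest were the repressor gene *Gfi1* (0.19), *Cebpd* (0.11) and *Irf8*, a factor of monocytes and dendritic cells (0.097). *Spi1*, which encodes PU.1, held 730 and 752 (-0.059, -0.21 to 0.090).

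Lymphoid genes gave a log2 ratio of 0.029 (-0.0061 to 0.064) with fragments divided by all fragments off chromosome 6, and -0.00055 with fragments divided by those in tested tiles. The 37 genes off chromosome 6 held 19.2 (18.8 to 19.5) fragments per 10000 in open, 19.1 (18.8 to 19.4) in exactly-1 and 18.8 (18.4 to 19.1) in closed cells. Of 21 members past the minimum, 13 were higher and 8 lower, with a median of 0.031. None was called, against 2.24% of all tested genes. The highest were *Tcf3*, which encodes E proteins of lymphoid development (851 and 735, 0.20, 0.051 to 0.34), *Foxo1* (0.19) and the T-cell kinase gene *Lck* (0.19). The lowest were the B-lineage factor gene *Ebf1* (-0.15), *Satb1* (-0.14) and *Flt3*, a receptor of multipotent and lymphoid progenitors (522 and 545, -0.078, -0.25 to 0.097). *Ikzf1*, which encodes Ikaros, held 720 and 669 (0.090, -0.064 to 0.24), and *Il7r*, the interleukin-7 receptor gene, 9 fragments in each group. Within 1000 bp of gene starts the lymphoid ratio was 0.090 (0.021 to 0.16), against 0.026 (-0.026 to 0.078) for megakaryocyte genes and a median of 0.023 over all genes tested in that window.

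**Figure D2:**
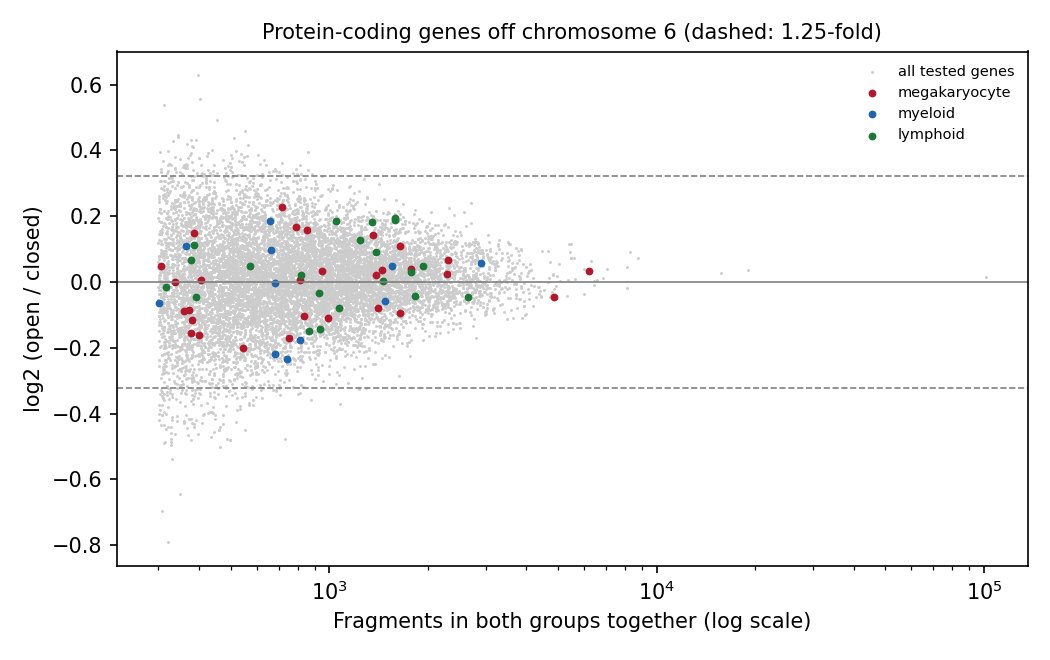
Fragments in both groups together (x axis, log scale) and log2 ratio of open over closed cells (y axis) for the 11172 tested genes, with megakaryocyte, myeloid and lymphoid genes in color and dashed lines where genes count as called (25% higher, 20% lower). All colored genes lie between the dashed lines.

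Stem cell genes gave a log2 ratio of 0.016 (-0.012 to 0.043), which was -0.014 when divided by fragments in tested tiles. Of 21 members past the minimum, 12 were higher, against 52.4% of all tested genes. *Hoxb5* (ENSMUSG00000038700, chr11:96303336-96306121; 282 and 219 fragments, 0.35, 0.089 to 0.61) was the 1 member called higher and *Tcf15* (ENSMUSG00000068079, chr2:152143561-152149097; 184 and 240, -0.40, -0.68 to -0.12) the 1 member called lower. Both genes are known as markers of long-term HSCs. Over all tested genes 0.958% were called higher and 1.28% lower, and 1 call each way among 21 members is too few to compare with these shares. With cells grouped by the first element alone, open meant at least 1 fragment there and closed none, whatever the second element held. In that setting the list gave 0.030 (0.0054 to 0.055) and *Hoxb5* stood at -0.059. With at least 1 fragment as the threshold of the open group neither gene stayed called (*Hoxb5* 0.068, *Tcf15* -0.20). *Cdkn1c*, a brake on the cell cycle (0.26, 0.052 to 0.48), and *Gfi1* were next highest, and *Fhl1* (-0.19) and *Ctnnal1* (-0.13) next lowest.

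Erythroid genes gave 0.021 (-0.046 to 0.088), or -0.0086 when divided by fragments in tested tiles. Of 7 members past the minimum, 3 were higher: the membrane skeleton genes *Ank1* (0.19) and *Sptb* (0.023), and the factor gene *Klf1* (0.098). The lowest were *Epor*, the erythropoietin receptor (143 and 181, -0.36, -0.68 to -0.032), the 1 member called, *Tfr2* (-0.078) and *Car2* (-0.077). Without matching *Epor* stood at -0.16, and with at least 1 fragment as the threshold of the open group at -0.021, both short of a call. Over all tested genes 1.28% were called lower. Endothelial genes were counted because endothelial cells also express *Vwf*. They gave -0.0090 (-0.062 to 0.043), with 7 of 11 members higher, against 52.4% of all tested genes. With each cell thinned to 3000 fragments the list gave -0.19 in the planned draw and -0.067 to 0.022 in 7 others made after that value was seen. The defining endothelial markers *Cdh5*, *Kdr*, *Emcn* and *Plvap* held 78 and 86, 303 and 288, 81 and 88, and 88 and 84 fragments in open and closed cells. The highest of the list were *Sox17* (0.17), *Nos3* (0.12) and *Egfl7* (0.11), and the lowest *Robo4* (-0.29), *Ramp2* (-0.21) and *Pecam1* (-0.16).

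Genes that separate platelet-biased (PLT) from multi-lineage (MUL) HSC clones in earlier bulk RNA from other mice gave no detectable difference with the same division. The 63 PLT genes gave 0.016 (-0.0086 to 0.040), with 26 of 42 members past the minimum higher. The 58 MUL genes gave -0.0021 (-0.030 to 0.026), with 18 of 42 higher. The share higher over all tested genes was 52.4%, and the lists were not tested against it. The ratio of PLT to MUL fragments was 1.32 in open, 1.31 in exactly-1 and 1.31 in closed cells. Its log2 difference between open and closed cells was 0.018 (-0.019 to 0.055, a normal approximation from the 4 sums), and does not depend on the scaling. Divided by fragments in tested tiles, PLT genes gave -0.014 and MUL genes -0.032 (-0.060 to -0.0035). At the ends of the PLT list stood *Cdkn1c*, *Stambpl1* (0.24) and *Grap* (0.23), and *Gpr4*, a proton-sensing receptor (150 and 190, -0.36, -0.68 to -0.041), *Mroh7* (-0.20) and *Mvd* (-0.17). At the ends of the MUL list stood *Rfc2*, a replication factor (0.34, 0.12 to 0.56), *Tipin* (0.28) and *D5Ertd605e* (0.23), and *Otos* (-0.34), *Lat* (-0.27) and *Sh2d5* (-0.24). *Gpr4* was called lower in the PLT list, and *Rfc2* higher and *Otos* lower in the MUL list. Over all tested genes 0.958% were called higher and 1.28% lower. With cells grouped by at least 1 fragment or none in the second element, whatever the first held, *Gpr4* stood at 0.036. Within 1000 bp of its start *Rfc2* stood at -0.37. With at least 1 fragment as the threshold of the open group none of the 3 stayed called (*Gpr4* -0.052, *Rfc2* 0.17, *Otos* -0.29).

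Lists that the study chose on the RNA of this preparation are not independent of these cells. From 30 listed genes with more RNA in PLT clusters, the 28 counted gave 0.011 (-0.018 to 0.041), with 16 of 24 members past the minimum higher. They gave 0.036 (0.0025 to 0.069) without marked doublets and 0.029 (0.0049 to 0.052) without matching. With cells matched on fragments in peaks they gave -0.011 (-0.040 to 0.019). With at least 1 fragment as the threshold of the open group they gave -0.0051 (-0.024 to 0.014). From 30 listed genes with more RNA in MUL clusters, the 28 counted gave -0.021 (-0.046 to 0.0045), with 7 of 26 higher. The share higher over all tested genes was 52.4%, and the lists were not tested against it. Divided by fragments in tested tiles, the MUL list gave -0.050 (-0.075 to -0.025), against -0.018 for the PLT list. No member of either list was called, against 2.24% of all tested genes. Low in the PLT list stood *Plekhg1* (-0.12) and *Mllt3* (-0.099), and high *Sbf2* (0.14), *Ncam2* (0.17) and *Inhba* (0.19). The MUL list ran from *Dnajc6* (-0.15), *Osbpl8* (-0.15) and *Rgs1* (-0.11) to *Ramp1* (0.096), *Syk* (0.14) and *Arhgap30* (0.18).

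**Figure D3:**
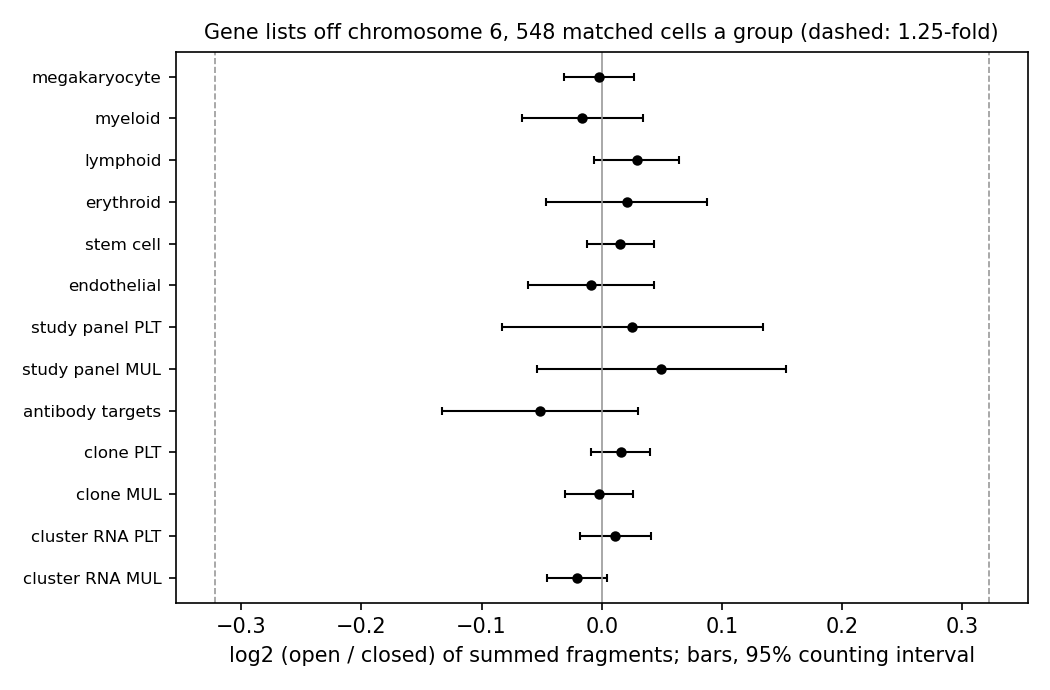
Log2 ratio of open over closed cells (x axis) of fragments summed over each gene list off chromosome 6 (y axis), divided by all fragments off chromosome 6, with bars for the 95% counting interval and dashed lines at the call of single genes. All intervals include 0 with this scaling, whereas those of the megakaryocyte list and both MUL lists lie below 0 when divided by fragments in tested tiles.

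The small panels rested on few genes. The PLT panel of *Neo1* (-0.095), *Gpr4*, *Inhba*, *Plek2* (77 and 75 fragments) and *Pdgfc* (0.13) gave 0.025 (-0.083 to 0.13). The MUL panel of *Ctla2a* (0.23, -0.11 to 0.57), *Sox4* (-0.012), *Flt3*, *Sec16b* (0.16) and *Crip2* (0.20) gave 0.050 (-0.054 to 0.15). Both panels thus lay within counting error of no difference. The genes of 10 antibody targets gave -0.052 (-0.13 to 0.030). Among them, *Procr* held 74 and 51 fragments (0.52, -0.013 to 1.06) and the adhesion gene *Vcam1* 15 and 28 (-0.92, -1.93 to 0.037), both below the minimum. With at least 3 fragments as the threshold of the open group, *Procr* stood at -0.0012. The others were *Itgb3* (689 and 720), *P2rx7* (632 and 646), *Mertk* (297 and 281), *Cd274* (199 and 216), *Mrc1* (155 and 149), *Cd68* (152 and 160), *Cxcr3* (134 and 152) and *Tnfrsf18* (65 and 69).

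Of all 11172 tested genes, 107 were at least 25% higher and 143 at least 20% lower in open cells. Divided by fragments in tested tiles, 58 were higher and 221 lower. The balance turned without matching (160 higher and 135 lower) and within 1000 bp of gene starts (119 and 72). In the main setting, among genes with at least 500 fragments, the highest were *Sobp* (ENSMUSG00000038248, chr10:43002500-43174530; 320 and 230, 0.46, 0.21 to 0.71), *1110059G10Rik* (0.44), the proteoglycan gene *Gpc1* (0.42), *Aox1* (0.40) and the ribosome export gene *Nmd3* (0.40). The lowest were *Csmd3* (ENSMUSG00000022311, chr15:47580637-48792063; 308 and 424, -0.48, -0.69 to -0.26), the cadherin gene *Cdh13* (-0.45), *Fez2* (-0.42), the axon guidance receptor gene *Robo2* (-0.39) and the RNA exosome gene *Exosc7* (-0.39). These are the ends of a long list, and none of the 10 stayed past the fold under every alternative: 4 did with cells matched on fragments in peaks, 2 without matching, and none with at least 1 fragment as the threshold of the open group. All 10 stayed past it when divided by fragments in tested tiles, 9 with at least 3 fragments as the threshold, and 7 without marked doublets. Matched on fragments in peaks, *Csmd3* stood at -0.059, *Fez2* at -0.11, *Nmd3* at 0.18, *Gpc1* at 0.18 and *Aox1* at 0.24. Without matching, *Cdh13* stood at 0.022 and *Robo2* at 0.14, and within 1000 bp of its start *Csmd3* stood at 0.24.

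Of 27294 tiles of 1000 bp with at least 100 fragments in both groups together, 315 (1.15%) were at least 1.5-fold higher and 225 (0.824%) at least 1.5-fold lower in open cells, 1.98% in all, with a median log2 ratio of 0.028. The balance turned with the scaling: divided by fragments in tested tiles, 254 were higher and 291 lower, with a median of -0.0018. Without matching, 440 of 45484 tested tiles were higher and 864 lower. The highest tile in the main setting, chr3:90220001-90221000 in *Rab13*, held 92 and 40 fragments in open and closed cells (1.19, 0.64 to 1.76). Tiles in *Rgl1* (72 and 32), between genes at chr13:45030001-45031000 (92 and 44), in *Amotl2* (81 and 41) and in *Cttn* (73 and 37) followed. The lowest, chr10:81218001-81219000 in an intron of *Atcay*, held 42 and 86 (-1.05, -1.62 to -0.50), followed by tiles in *Traip* (39 and 77), *Mrpl52* (38 and 75) and *Rapgef4* (35 and 69) and between genes at chr5:34520001-34521000 (42 and 82). None of these tiles overlapped a megakaryocyte, myeloid or lymphoid gene of the lists. The share of all tested tiles that overlap such genes was not counted, so this does not show that the lists were spared.

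Motif strings of lineage factors differed little. Fragments in tested tiles with a string over those without it gave log2 ratios of open over closed cells between -0.0053 (MEIS) and 0.0034 (STAT) for the 10 strings. The GATA string, bound by megakaryocyte and erythroid factors, gave 0.0012 (-0.0032 to 0.0056), and the SPI1 string, bound by a myeloid and B-cell factor, -0.0042 (-0.0082 to -0.00027). Within 3 equal groups of tiles by GC content the 30 values ran from -0.0100 (AP-1) to 0.0073 (STAT). Whole chromosomes lay between -0.016 (X) and 0.0083 (7).

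At *Vwf*, outside the elements, 655 fragments fell on the gene and its upstream region in open, 595 in exactly-1 and 575 in closed cells, which include bins that adjoin the elements and are not independent of the grouping. Chromosome 6 without *Vwf* gave a log2 ratio of -0.0070 (-0.014 to -0.00033). A closed cell here is one without a fragment in the elements at this depth, which does not show that its elements were closed.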

How the data were processed

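The authors deposited raw counts of reads, fragments, UMIs and genes per barcode, a call of each barcode as a cell, and unique ATAC fragments with the count of read pairs behind each, made with Cell Ranger ARC 2.0.2 on mm10. The 3108 passing cells held 37137164 of 42000180 fragments. Cells were matched 1 to 1 on ATAC fragments, without replacement and at most 10% apart (10 open cells found no match). Genes followed GENCODE vM21. Fragments were summed per group, with exact Poisson, Clopper-Pearson and conditional binomial intervals. The members and lists were chosen with earlier results of these data known. Named genes are the panel and antibody genes, the 3 highest and 3 lowest of each list with at least 300 fragments, the 5 highest and 5 lowest of all genes with at least 500, the 5 tiles at each end, and genes named for their role. Doublets were kept, and marked by an excess of sites where over 2 fragments overlap (q under 0.05). The RNA counts per gene, the tag matrix, whose entries are unnamed, and 19 columns of the barcode counts were not used. Alternatives changed the matching, threshold, element, scaling, depth, counting, cell filter, doublets, gene window, minimums and tile size. Steps were tested on simulated data. Python 3.11.15, numpy 2.4.6, scipy 1.17.1, pandas 2.3.3, pysam 0.24.0 and matplotlib 3.10.9 were used. Some genes that were counted in the lists are not reported here by name.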

Additional observations from a re-analysis of the deposited data

How the results depend on the processing

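With fragments divided by all fragments off chromosome 6, the differences of the lists between groups lay within counting error in the main setting. An open cell can rest on 2 fragments, and the part of depth in the small differences was not tested. Of 132 alternative list values with an interval, 12 had one that excludes 0. Fragments were summed per group, so the matched cells were not analyzed as pairs, and 1 preparation gives no replicates. Of 1175 alternative values of 98 named genes, 1037 lay within the main counting interval, 129 outside it and 9 changed the sign of a value past the fold. The stricter cell filter (over 15% of fragments in peaks, nucleosome signal under 4) left every main value unchanged. It is thus no separate check, although its values are counted among these alternatives. Over 13 alternatives, the myeloid ratio ran from -0.047 to -0.000086 and the megakaryocyte ratio from -0.042 to 0.026, but further thinned draws widen this, to -0.13 to 0.032 for myeloid genes. The cause of the shifts below was not tested, except that thinning, minimums and group sizes set how many genes and tiles are counted.

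Matched on fragments in peaks, stem cell genes gave -0.022, *P2rx1* -0.039, *Itga2b* -0.062, *Csmd3* -0.059, *Fez2* -0.11, *Nmd3* 0.18 and *Mpo* -0.55. Without matching, myeloid genes gave -0.047, cluster PLT genes 0.029, clone PLT genes -0.013, *Cdh13* 0.022 and *Robo2* 0.14. In that setting 160 genes were higher and 135 lower (2.21% of those tested), and of 45484 tested tiles 440 were higher and 864 lower (2.87%). The main setting gave 2.24% of tested genes and 1.98% of tested tiles, and the number tested changes between settings. With at least 1 fragment as open, *Epor* was at -0.021, 59 genes were higher and 62 lower (0.862%), and 478 tiles higher and 468 lower (1.65%). With at least 3, erythroid genes gave 0.10, cluster PLT genes 0.046 and *Procr* -0.0012, with 155 tiles higher and 107 lower (2.81%). Single elements were grouped by at least 1 fragment or none there, whatever the other element held. By the first element alone stem cell genes gave 0.030 and *Hoxb5* was at -0.059. By the second alone *Gpr4* was at 0.036, with 70 genes higher and 103 lower (1.30% of those tested). In that setting 376 tiles were higher and 372 lower (1.66%).

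Divided by fragments in tested tiles, the ratios were -0.032 for megakaryocyte, -0.046 for myeloid, -0.014 for stem cell, -0.014 for clone PLT, -0.032 for clone MUL, -0.018 for cluster PLT and -0.050 for cluster MUL genes, with 58 genes higher and 221 lower, against 107 and 143. Counting each cell at most once gave 19 genes higher and 10 lower (0.304% of those tested), and 143 tiles higher and 75 lower (0.917%). Without marked doublets cluster PLT genes gave 0.036, and 236 tiles were higher and 141 lower (1.78%). Within 1000 bp of gene starts, lymphoid genes gave 0.090, clone MUL 0.029, cluster MUL 0.0050 and the PLT/MUL ratio -0.030. In this window *Cdh13* stood at 0.98, *Csmd3* at 0.24 and *Rfc2* at -0.37, with 119 genes higher and 72 lower (2.74%). A minimum of 100 fragments gave 384 genes higher and 507 lower (6.12% of 14548 tested), and no minimum 1558 and 1953 (18.6% of 18905). A tile minimum of 200 gave 17 tiles higher and 8 lower (0.183% of 13641).

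Thinned to 3000 fragments a cell, the ratios were -0.042 for megakaryocyte, 0.079 for lymphoid, 0.069 for stem cell, -0.19 for endothelial and -0.063 for cluster MUL genes, and -0.47 for *Procr*. In this setting 48 genes were higher and 39 lower (3.56% of those tested), and 58 tiles higher and 44 lower (1.80%). These values depend on the draw. In 7 further draws, made after the endothelial value was seen, that list lay between -0.067 and 0.022, stem cell genes between -0.017 and 0.061, lymphoid between -0.020 and 0.070, megakaryocyte between -0.049 and 0.0060 and cluster MUL genes between -0.073 and 0.0088. With each cell weighted equally, also chosen after seeing the data, endothelial genes gave -0.031.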
